A study of Mus musculus with 70 samples.

Results

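The sarcomere and myofibre genes are 36 genes of the contractile apparatus and metabolism of skeletal muscle fibres, and all 36 were found by symbol among the 55011 genes of the count table. They were chosen by name, as a list that sets regenerating against mature isoforms in whole regenerating muscle and that shows how much fibre RNA the libraries of sorted cells hold. By role, 5 are isoforms of developing or regenerating fibres (Myh3, Myh8, Actc1, Tnnt2 and Myl4), 15 belong to fast fibres, 5 to slow fibres (Myh7, Tnnc1, Tnni1, Tnnt1 and Mybpc1) and 11 are shared by fibre types.

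A sarcomere is the repeating unit of a muscle fibre in which myosin heavy and light chains pull on actin filaments, while troponin and tropomyosin let calcium switch the pull on and titin and nebulin hold the filaments in register. Many of these proteins come in isoforms: embryonic myosin (Myh3), perinatal myosin (Myh8) and cardiac actin (Actc1) are made in developing fibres and again in new fibres after injury, and adult fast or slow isoforms replace them as fibres mature. Endothelial cells, leukocytes, stromal cells and resting satellite cells build no sarcomeres, although mural cells and satellite cells do make desmin (Des), an intermediate filament protein.

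The study measured bulk RNA of mouse hindlimb muscle in 70 libraries of 28 groups from 6 experiments. Sorted cells came from enzymatically digested hindlimb muscle and were sorted by flow cytometry in double rounds, with 1000 cells per library. Whole muscle was the tibialis anterior, with 2 ng of its RNA per library. Injury was an injection of cardiotoxin, a venom toxin that destroys fibres and starts regeneration, and each mouse with a day or hour after injury carried it.

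In C57BL/6J mice, CD31+ cells (endothelial), CD45+ cells (leukocytes), MuSCs (satellite cells, the muscle stem cells) and the stromal cells that the labels call MmSCs were sorted without injury (day 0) and on day 1 after cardiotoxin, with 3 libraries of each. Whole muscle of C57BL/6J mice was taken on day 7 after cardiotoxin, from mice given an antibody to the chemokine Cxcl5 or an IgG control, with 3 libraries of each. Both of those groups were injured, and no uninjured whole muscle was analysed here. A cytokine experiment gave uninjured C57BL/6J mice PBS (2 libraries, with no time on the label), oncostatin M (Osm), Il-17A, TNFa and Il-1b together for 2, 4 or 8 h (2, 1 and 2 libraries), 1 of these cytokines alone for 2 h, or Osm paired with 1 of the others for 2 h (2 libraries each), and MmSCs were sorted. MmSCs also came from Il6RD mice, whose allele reports Il-6 expression with Thy1.1 and can deplete those cells, at 12 h after cardiotoxin (3 Thy1.1+ and 3 Thy1.1- libraries). The remaining MmSCs came from Il1b-KO mice and Il1b-WT littermates on day 1 after cardiotoxin (3 and 2 libraries), and from uninjured DMDmdx mice, which lack dystrophin, at 2.5, 7 and 12.5 weeks (3, 3 and 2 libraries). The labels do not give the age of the other mice or say which libraries came from which animals, so p-values measure only the spread between these libraries.

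Library totals lay between 2252373 and 8408842 counts. Levels are given as CPM, the usual scaling of a count by its library's total. The leukocyte and endothelial markers were highest in the sorted cells of their label. The summed level of 8 leukocyte markers was 24220 to 28439 CPM in CD45+ libraries and 1.21 to 4.92 CPM in MuSC libraries, and that of 8 endothelial markers was 8799 to 12134 CPM in CD31+ libraries. Satellite cell markers were as high as 9761 CPM in MuSCs at day 0, and 8 MmSC markers as high as 60531 CPM in MmSCs at day 0. Some sums were not particular to their label. The MmSC sum was at 3416 to 3968 CPM in CD31+ cells at day 0. The satellite cell sum was at 4858 to 5560 CPM in MuSCs on day 1 and up to 5639 CPM in Thy1.1- MmSCs, there mostly Sdc4 (mean 3803 CPM). The mural sum was highest in MuSCs at day 0, at 1461 to 2599 CPM. In whole muscle, leukocyte, endothelial, MmSC and satellite cell markers were all present, so in those libraries fewer cells of a type and less RNA per cell cannot be told apart. On day 1, MuSC libraries 2 and 3 held Pdgfra, a stromal marker, at 54.9 and 28.1 CPM, against 0.328 CPM in library 1.

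The promoters of 4 members are shown first because they show how differently the start sites of genes that are described together below are built: skeletal actin (Acta1) and cardiac actin (Actc1), the main actins of mature and of regenerating fibres; Myh4, the fastest adult myosin; and Des, the member with the highest level in MuSCs. Each is the RefSeq window of GRCm38.p6 from 250 bases before to 50 bases after the gene's start, 5′ to 3′ on the gene's own strand, with matches to a CArG box (the element bound by serum response factor), a MEF2 box or TATAAA on either strand in capitals.
Acta1, chr8:123894726-123895025, minus strand: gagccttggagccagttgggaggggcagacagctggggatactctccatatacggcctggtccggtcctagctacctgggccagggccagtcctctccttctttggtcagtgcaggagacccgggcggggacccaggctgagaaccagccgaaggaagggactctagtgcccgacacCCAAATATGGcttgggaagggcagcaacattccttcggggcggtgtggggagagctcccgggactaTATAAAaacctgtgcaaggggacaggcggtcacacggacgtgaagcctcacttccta
Actc1, chr2:114052826-114053125, minus strand: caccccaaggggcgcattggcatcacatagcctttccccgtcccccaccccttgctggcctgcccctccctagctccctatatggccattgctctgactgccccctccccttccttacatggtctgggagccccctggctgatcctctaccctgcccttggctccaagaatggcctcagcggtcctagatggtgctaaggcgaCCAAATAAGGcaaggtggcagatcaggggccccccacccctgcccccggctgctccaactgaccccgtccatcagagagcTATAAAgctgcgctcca
Myh4, chr11:67237562-67237861, plus strand: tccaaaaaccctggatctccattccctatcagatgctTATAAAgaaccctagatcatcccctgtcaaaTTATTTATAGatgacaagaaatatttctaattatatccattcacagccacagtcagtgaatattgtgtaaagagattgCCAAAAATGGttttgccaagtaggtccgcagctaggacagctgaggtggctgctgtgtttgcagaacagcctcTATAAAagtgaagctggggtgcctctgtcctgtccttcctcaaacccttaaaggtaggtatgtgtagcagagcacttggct
Des, chr1:75360042-75360341, plus strand: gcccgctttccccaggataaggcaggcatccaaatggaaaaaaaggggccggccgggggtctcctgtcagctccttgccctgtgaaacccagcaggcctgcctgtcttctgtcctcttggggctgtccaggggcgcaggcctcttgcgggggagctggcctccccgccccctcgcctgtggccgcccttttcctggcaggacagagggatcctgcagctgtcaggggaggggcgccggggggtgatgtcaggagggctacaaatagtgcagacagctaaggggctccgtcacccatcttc
A CArG box began 73 bases before the start of Acta1, 47 before that of Actc1 and 104 before that of Myh4, and Des had none in its window. Myh4 also had a MEF2 box 182 bases before its start, with a TATAAA match on the other strand overlapping it. The E-box CANNTG, the pattern bound by MyoD and related factors, occurred in all 4 windows, at 220 and 36 bases before the start in Des.

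Of the 36 members, 30 had such a window and Actn3, Tnni2, Tnnt3, Neb, Tcap and Xirp1 had none in the table. The CArG box occurred in 3 of the 30 windows (10%) and in 1.57% of all 27025 windows of 300 bases. The MEF2 box occurred in 5 windows (16.7%), those of Ttn, Myh1, Myh4, Myh8 and Pvalb, against 3.26% of all windows. TATAAA occurred in 9 (30.0%) against 14.2%, and the E-box in 25 (83.3%) against 72.1%. Both strands were searched, and a match describes letters in a window, not a bound site.

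Whole muscle at day 7 was built of mature fast fibre transcripts with a smaller regenerating fraction, and the libraries of mice given the antibody to Cxcl5 differed from IgG libraries in no member past the threshold. Together the 36 members took 26.9% to 29.8% of all counts in the 3 IgG libraries and 26.2% to 27.6% in the 3 libraries with the antibody. Per kilobase of exon, the order of levels in the IgG group ran from Acta1 (43850 CPM per kb), through the fast myosin light chain Mylpf (13282), the fast calcium pump Atp2a1 (11647), muscle creatine kinase Ckm (6714), the fast light chain Myl1 (6337) and fast troponin T Tnnt3 (6100), down to the slow myosin Myh7 (0.195). This order depends on the length used: per kilobase of the longest annotated transcript Myl1 was at 12148, above Atp2a1 at 11647, and Tnnt3 at 8949, above Ckm at 7132. Among myosin heavy chains, which lie side by side on chromosome 11 apart from Myh7 on chromosome 14, the levels per kilobase were 2620 for Myh4, 1626 for Myh1, 78.6 for Myh8, 67.0 for Myh2 and 61.5 for Myh3, with Myh8 at 151 by the longest transcript. Reads of these near-identical paralogs can be split between genes by the counting, so their levels relative to each other are uncertain, and the same holds for the actins.

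**Figure D1:**
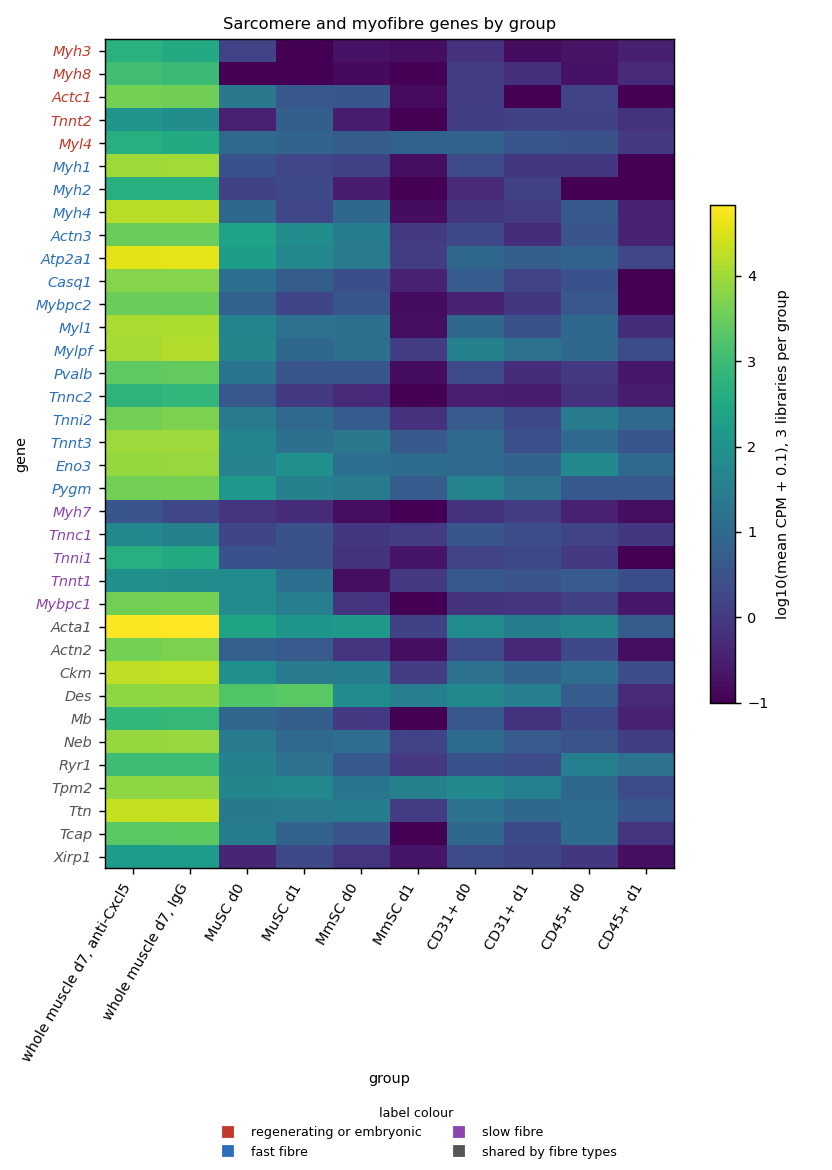
Mean CPM of each member (rows, label colour by class) in whole muscle and in the sorted cells at day 0 and day 1 (columns, 3 libraries each), on a log10 scale after adding 0.1. Whole muscle is far above every sorted group for nearly all members; the MuSC columns keep a bright Des row, and MmSCs on day 1 are darkest, with Acta1 falling from a bright to a dark cell.

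The regenerating isoforms were present in every whole muscle library. Embryonic myosin Myh3 (chr11:67078300-67102291) stood at 567, 354 and 658 CPM with the antibody and at 313, 264 and 542 CPM with IgG. Perinatal myosin Myh8 was at 1054, 797 and 1370 CPM against 761, 976 and 1040, and cardiac actin Actc1 (chr2:114047282-114053548) at 4734, 3660 and 4057 CPM against 3649, 3175 and 4337. In all of these the groups overlapped, and IgG library 3 lay with the antibody libraries rather than with the other IgG libraries for Myh3 and Actc1. By edgeR's quasi-likelihood test with Benjamini-Hochberg adjustment over 13346 genes, the log2 difference (antibody minus IgG) was 0.43 ± 0.25 (SE) for Myh3 (adjusted p = 0.85), 0.14 ± 0.17 for Myh8 (0.922) and 0.09 ± 0.13 for Actc1 (0.935). Cardiac troponin T Tnnt2, which regenerating fibres also make, was at 119, 102 and 101 CPM against 56.5, 61.9 and 111 (0.44 ± 0.21, adjusted p = 0.844). Without antibody library 1 the difference of Actc1 was -0.03, and without antibody library 3 that of Myh8 was -0.04. The embryonic light chain Myl4 was at 527, 340 and 526 CPM against 302, 301 and 501 (0.27 ± 0.21, adjusted p = 0.867).

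Among the mature fast isoforms the fitted differences lay between -0.36 and -0.02, with 0 called. The scaling factors moved every gene of this comparison by -0.08 on the log2 scale, so a fitted value near -0.08 stands for equal mean CPM, and by mean CPM Myh4 (15818 against 15760) and Actn3 (3266 against 3135) were higher with the antibody. Myh4, the IIb myosin of the fastest fibres (chr11:67238029-67260446), was at 13885, 18824 and 14746 CPM with the antibody and 16902, 18671 and 11707 CPM with IgG. Myh1, the IIx myosin, was at 10355, 8616 and 11379 CPM against 12788, 10076 and 8130. Both pairs of groups overlapped, with log2 differences of -0.08 ± 0.19 (adjusted p = 0.954) and -0.12 ± 0.17 (0.929). Without IgG library 2 the difference of Myh4 turned to 0.08, and without IgG library 1 that of Myh1 turned to 0.08. The light chain Mylpf was at 14825, 6970 and 13086 CPM against 15198, 14360 and 12759 (-0.36 ± 0.22, adjusted p = 0.85), with antibody library 2 far below the others. Fast troponin I Tnni2 was at 4453, 3176 and 4125 CPM against 4915, 4916 and 4264 (-0.34 ± 0.14, adjusted p = 0.844).

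Slow isoforms of myosin and the troponins were at lower levels than the fast ones, while the slow myosin-binding protein Mybpc1 was not. It stood at 4154, 3445 and 3805 CPM with the antibody and 4141, 4181 and 3945 CPM with IgG (-0.18 ± 0.11, adjusted p = 0.85), or 903 CPM per kb in the IgG group beside 915 for its fast counterpart Mybpc2. Slow troponin I Tnni1 was at 454, 401 and 513 CPM with the antibody and 285, 323 and 493 CPM with IgG (0.25 ± 0.17, adjusted p = 0.862), and slow troponin C Tnnc1 at 66.7, 34 and 53.9 CPM against 28.7, 20.5 and 51.6 (0.59 ± 0.31, adjusted p = 0.849). Slow myosin Myh7 was at 4.08, 4.37 and 1.51 CPM against 1.5, 0.697 and 2.83, the lowest level of any member here. For Tnni1 and Tnnc1, as for Myh3, IgG library 3 was the library that made the groups overlap.

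In 2 of the 36 members, Acta1 and Des, both shared by fibre types, the groups did not overlap, and both were lower with the antibody. Over all genes tested 12.7% did not overlap, and 2.91% did not overlap and were lower. Acta1, the actin of mature skeletal fibres (chr8:123891769-123894751), was at 62137, 61535 and 59395 CPM with the antibody and at 68859, 66674 and 66525 CPM with IgG. Des, which links Z-discs to each other, was at 6990, 6753 and 6966 CPM against 7193, 7314 and 7254. The differences were -0.22 ± 0.08 for Acta1 (adjusted p = 0.832) and -0.15 ± 0.09 for Des (adjusted p = 0.85), so neither passed. The Z-disc crosslinker Actn2 was at 4514, 3465 and 4170 CPM against 5014, 4410 and 4685 (-0.29 ± 0.12, adjusted p = 0.844). The giant spring protein titin, Ttn, overlapped fully, at 21262, 22028 and 20265 CPM against 20596, 22731 and 19693.

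Of the 36 members 0 were called by edgeR, beside 0.0300% of all genes tested, and 3 members (Tnni2, Acta1 and Actn2) had an unadjusted p under 0.05, as did 770 genes of the whole table; DESeq2 also called 0 members. The median log2 difference was 0.27 over the 5 regenerating isoforms, -0.13 over the 15 fast genes, 0.25 over the 5 slow genes and -0.15 over the 11 shared genes, beside -0.000385 over all genes tested. By fitted values 27 of the 36 members lay below 0, and by mean CPM, without the scaling factors, 23 did. The summed leukocyte markers were at 1498 to 2196 CPM with the antibody and 1057 to 1479 CPM with IgG, and the endothelial sum at 462 to 591 CPM against 582 to 645, with 0 markers called in either list. The part of these shifts in the members' values was not tested.

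**Figure D2:**
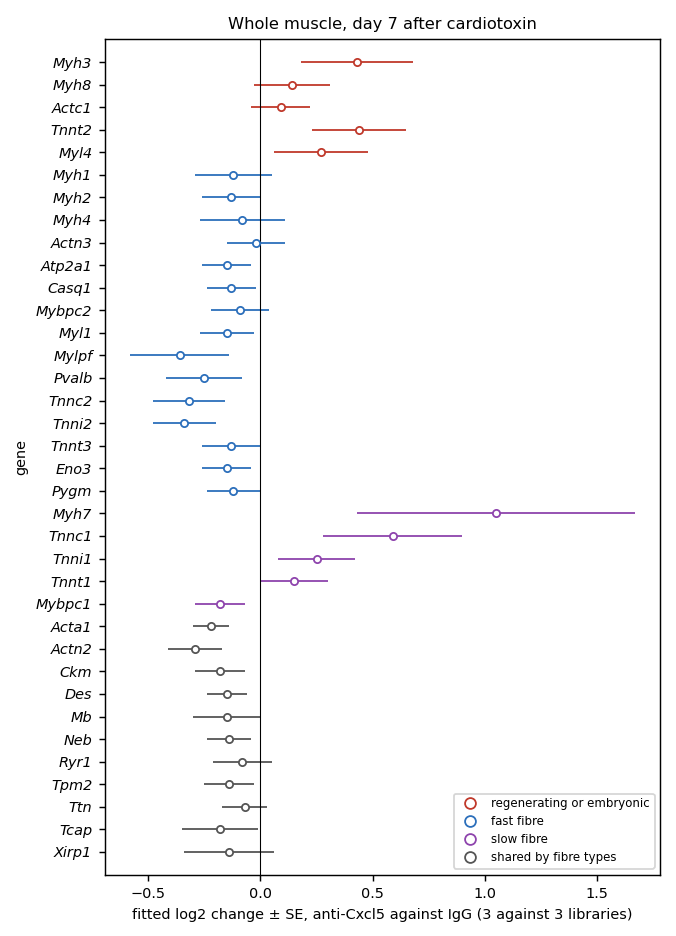
Fitted log2 difference between whole muscle with the antibody to Cxcl5 and with IgG on day 7, for each of the 36 members (points, coloured by class, with SE bars; 3 against 3 libraries). The fitted values of the regenerating and most slow isoforms sit right of 0 and those of fast and shared genes left of it, with every gene shifted by -0.08 through scaling, and open points show that none was called.

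Isoform shares were computed within each library from levels per kilobase of exon union, to ask whether regenerating isoforms made up more of their family. The percentages depend on this length, which for Myh8 is 11772 bases against 6149 for its longest transcript. Shares by the longest transcript were not computed. Actc1 was 6.74%, 5.34% and 6.09% of the actin pair Actc1 and Acta1 with the antibody, and 4.79%, 4.32% and 5.83% with IgG. Myh3 and Myh8 together were 4.37%, 2.7% and 4.96% of 6 myosin heavy chains against 2.32%, 2.59% and 5.12%, while Myh4 was 55.0%, 67.1% and 54.0% against 56.1%, 63.6% and 56.0%. The groups overlapped in each of these shares. IgG library 3 lay among the antibody libraries for Actc1 and above them all for Myh3 and Myh8, while for Myh4 every IgG library lay within the antibody range. Slow troponin C was 6.92%, 5.32% and 5.85% of Tnnc1 and Tnnc2 against 2.90%, 2.06% and 5.72%, and slow troponin I was 4.06%, 4.98% and 4.92% of Tnni1 and Tnni2 against 2.35%, 2.66% and 4.59%. Over the 9 shares computed, the two-sided exact permutation p lay between 0.2 and 1.0, where 3 against 3 libraries cannot go below 0.1. The largest mean difference was 2.47 percentage points, for Tnnc1. The gene Nisch overlaps Tnnc1 on the opposite strand, at a mean of 232 CPM in IgG whole muscle. The strand setting of the counting is not given, and the part of Nisch in the Tnnc1 values was not tested.

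**Figure D3:**
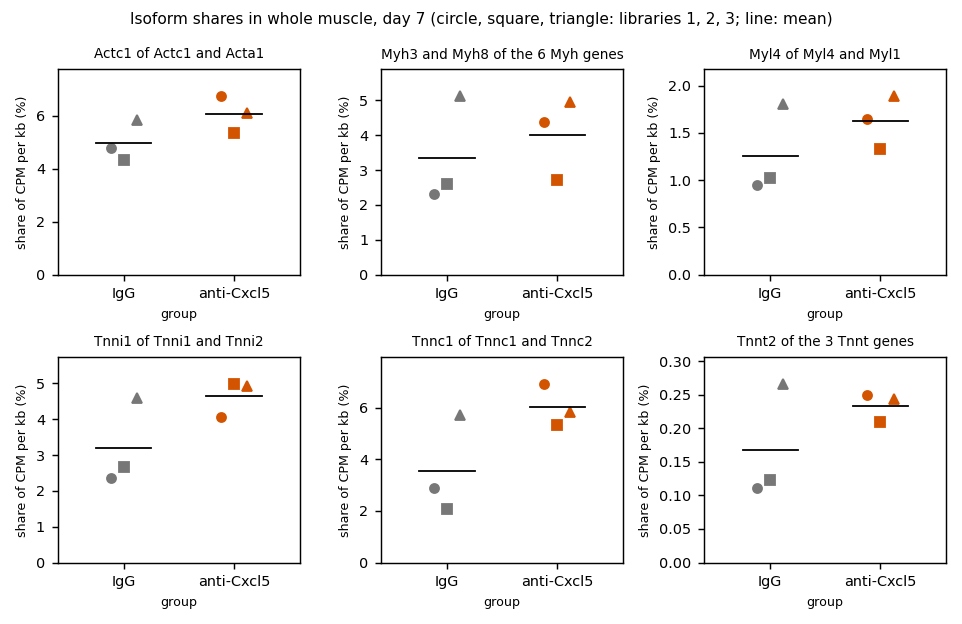
Share of a regenerating or slow isoform in its family, as percent of CPM per kilobase, in each whole muscle library of day 7 (grey, IgG; orange, antibody to Cxcl5; lines are means of 3). In all 6 panels the triangle of IgG library 3 lies within the range of the orange points or above it. Actc1 runs from 4.32% to 5.83% with IgG and from 5.34% to 6.74% with the antibody.

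The other genes of the fibre programme also had 0 calls at day 7. This was so for 26 tested genes of other sarcomere and Z-disc proteins, 14 of excitation-contraction coupling, 15 of fibre energy metabolism, 14 of myogenic regulation and fusion and 7 of the acetylcholine receptor and its synapse, with median log2 differences between -0.15 and 0.02. The smallest p among them was that of Csrp3, the muscle LIM protein of the Z-disc, at means of 148 CPM with the antibody and 205 CPM with IgG (-0.55 ± 0.16, adjusted p = 0.793). Myogenin (Myog), the factor that drives fusion of new fibres, was at 214, 239 and 253 CPM against 163, 141 and 259.

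Sorted libraries held fibre transcripts at small fractions of their level in whole muscle. Set against the IgG whole muscle mean, the median member was at 0.457% in MuSCs at day 0, 0.135% in MmSCs, 0.103% in CD31+ cells and 0.0798% in CD45+ cells. On day 1 the medians were 0.194%, 0.00458%, 0.0482% and 0.0157%. The whole muscle reference is itself injured muscle at day 7, so these percentages set the levels side by side and are no estimate of cells or fibres in a sort.

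The summed CPM of the 36 members was 3346, 3344 and 3112 in MuSCs at day 0 and 2624, 2475 and 3231 on day 1, and most of it was Des. Without Des the sum was 1485, 1539 and 1391 at day 0 and 705, 545 and 687 on day 1. In MmSCs the sum was 576, 497 and 387 at day 0 and 101, 99.1 and 117 on day 1. It ran from 322 to 440 and then from 139 to 237 in CD31+ cells, and from 247 to 319 and then from 55.4 to 91.5 in CD45+ cells. The day 0 and day 1 sums did not overlap in MmSCs, CD31+ and CD45+ cells, and overlapped in MuSCs only with Des included.

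**Figure D4:**
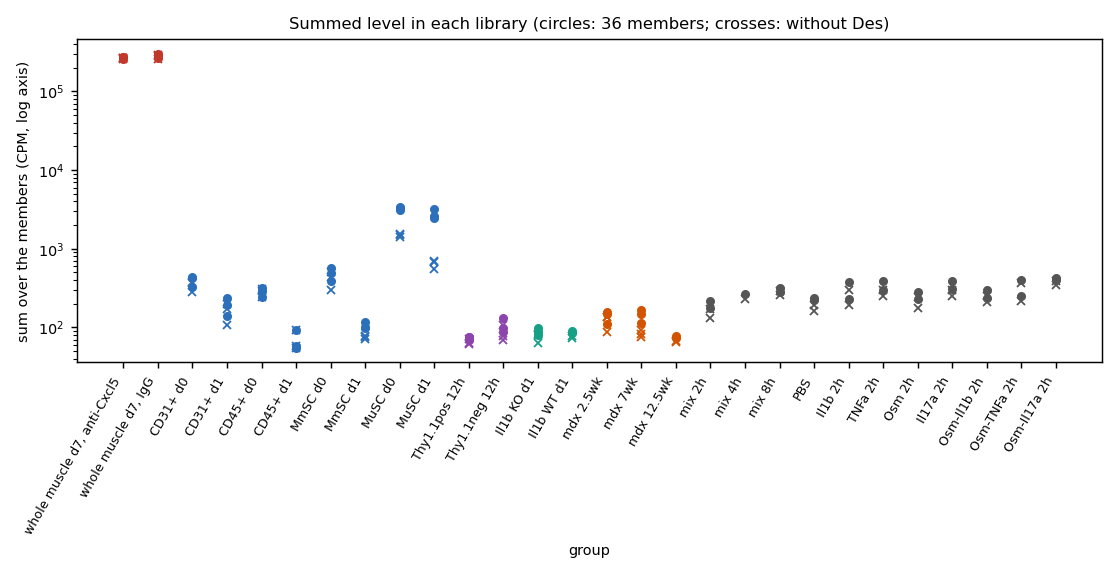
Summed CPM of the members in each library (log axis), with circles for all 36 and crosses without Des, by group and coloured by experiment. Whole muscle is at 261867 to 298149, MuSCs are at 2475 to 3346, and the other sorted groups are between 55.4 and 576.

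At day 0 most tested members were higher in MuSCs than in the mean of the other sorted cells. Des was at 1862, 1805 and 1721 CPM in MuSCs, against at most 85.7 CPM in any day 0 library of the other compartments. The Z-disc actinin of fast fibres Actn3 was at 237, 237 and 228 CPM against at most 38.4, and slow troponin T Tnnt1 at 66.3, 67.5 and 62.3 CPM against at most 6.1. Neither gene overlapped between MuSCs and the rest. The gene Ctsf lies 297 bases from Actn3 on the opposite strand, at day 0 means of 158 CPM in MuSCs and 215 CPM in MmSCs. The strand setting of the counting is not given, and the part of Ctsf in the Actn3 values was not tested. Slow myosin-binding protein Mybpc1 was at 63.9, 51.1 and 74.7 CPM in MuSCs against group means of 0.621, 1.2 and 0.674 CPM in CD31+ cells, CD45+ cells and MmSCs. Tested with edgeR against the mean of the other compartments at day 0, Des was 5.69 ± 0.24 higher on the log2 scale (adjusted p = 8.36e-15), Mybpc1 5.93 ± 0.41 (1.48e-10), Tnnt1 5.45 ± 0.35 (1.43e-11) and Actn3 4.94 ± 0.31 (1.04e-11).

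Of 31 members tested in the sorted compartments, 22 were higher in MuSCs at day 0 and 0 lower (71% called), beside 49.2% of all genes tested. By direction the background was 25% higher and 24.2% lower. The called members were 1 of 3 regenerating isoforms (Actc1), 11 of 13 fast genes, 2 of 4 slow genes and 8 of 11 shared genes, and the median difference was 1.54 against -0.0632 over all genes. A call against this mean does not set MuSCs above each compartment: Eno3, counted as higher, was at 43.5, 39.1 and 32.1 CPM in MuSCs and at 52, 60.6 and 64.1 CPM in CD45+ cells. The ranges of Tnni2, Ryr1, Mybpc2 and Actn2 in MuSCs also overlapped those in CD45+ cells. Those of Mylpf and Actn2 overlapped those in CD31+ cells. Titin did not pass (-0.01 ± 0.30, adjusted p = 1), and Myh1, Myh4, Myl4, Tpm2, Tnnc1, Tnni1, Tnnt2 and Xirp1 were not called either. The members not tested for low counts were Myh3, Myh8, Myh2, Tnnc2 and Myh7, whose group means in the sorted compartments lay between 0 and 3.79 CPM.

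The order of levels per kilobase also differed between compartments. In MuSCs at day 0 Des stood first (478 CPM per kb), ahead of Acta1 (166), Actn3 (80.6), Atp2a1 (54.3), Mylpf (41.3) and the muscle glycogen phosphorylase Pygm (39.2). In MmSCs at day 0 Acta1 was first (92.4), followed by Des (18.6), Mylpf (13.4), Tnnt3 (12.7) and Ckm (10.3), and in CD31+ cells Acta1 (42.9) was followed by Mylpf (33.9), beta-tropomyosin Tpm2 (20.8) and Des (14.0). In CD45+ cells the muscle enolase Eno3 was first (33.9), with Acta1 second (28.2) and Tnni2 next (17.5). As a percentage of whole muscle, Tnnt1 in MuSCs reached 92.1% at day 0 and 19.0% on day 1, and Des 24.8% and 29.4%, whereas Acta1 in MuSCs was at 0.379% and 0.181%.

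From day 0 to day 1 after cardiotoxin, 23 of the 31 tested members fell in MmSCs, 20 in CD45+ cells, 15 in MuSCs and 11 in CD31+ cells. Fitted values below 0, called or not, were 28, 30, 23 and 26, and by mean CPM 27, 30, 24 and 26 members were lower on day 1. In the same order, the scaling factors moved every gene by -0.27, 0.25, 0.21 and 0.02 on the log2 scale. The median change over all genes was -0.224, -0.119, -0.0374 and -0.0356, and the share of all genes below 0 was not computed. These 4 comparisons are fitted together with the comparison among compartments above and share its day 0 libraries. The pattern of which genes moved differed by compartment.

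In MuSCs most fast fibre genes fell, and Des did not pass the test. Pygm was at 131, 130 and 117 CPM at day 0 and 35.6, 36 and 31.7 CPM on day 1. Atp2a1, the calcium pump that refills the store of fast fibres (chr7:126445858-126463108), was at 211, 189 and 166 CPM and then 54.2, 39.9 and 53.9, and Actn3 at 237, 237 and 228 CPM and then 69.6, 60.7 and 84.9. In each of these every day 1 library lay below every day 0 library. The fitted changes were -1.67 ± 0.22 for Pygm (adjusted p = 1.82e-06), -1.73 ± 0.30 for Atp2a1 (7.28e-05) and -1.49 ± 0.37 for Actn3 (0.00247). Ctsf, the neighbour of Actn3, went from a mean of 158 to 37.5 CPM, and its part in the change of Actn3 was not tested. Tnnt1 went from 66.3, 67.5 and 62.3 CPM to 12.3, 12.5 and 15.6 (-2.07 ± 0.38, adjusted p = 0.000149), and Mylpf from 32.7, 55.1 and 43.8 CPM to 11, 8.85 and 8.46 (-1.99 ± 0.44, adjusted p = 0.000944).

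Des stayed high in MuSCs, at 1862, 1805 and 1721 CPM and then 1920, 1930 and 2544 CPM (0.45 ± 0.29, adjusted p = 0.233). Acta1 was at 262, 257 and 248 CPM and then 111, 123 and 133, with no overlap but an adjusted p of 0.0826 (-0.86 ± 0.38). Titin was at 18.4, 21.8 and 29.4 CPM and then 26.2, 21.3 and 24.8 (0.26 ± 0.34, adjusted p = 0.586). Eno3 rose, from 43.5, 39.1 and 32.1 CPM to 127, 53.7 and 88.1 (1.43 ± 0.24, adjusted p = 6.12e-05). Tnnt2 rose from 0, 0 and 0.747 CPM to 10.2, 3.25 and 3.73, or from 3 counts in all to 106, that is 19.8 times as high (95% counting interval 6.58 to 97.3) (edgeR adjusted p = 0.00985). Beside these, the gene Pfn1, which lies 2557 bases from Eno3 on the opposite strand, went from a mean of 488 to 1731 CPM, and the strand setting of the counting is not given, so its part in the Eno3 values was not tested.

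Over the 31 tested members 15 fell and 2 rose in MuSCs (54.8% called), beside 38.8% of all genes tested, with 17.4% lower and 21.4% higher. The median change was -1.07 against -0.0374 over all genes. The members that fell were 9 of 13 fast genes, 4 of 11 shared genes, Tnnt1 of the slow genes and Actc1 of the regenerating ones. The number that fell was 9 without day 1 library 2, and Tnnt2 lost its call without day 0 library 1 (adjusted p = 0.0526) or day 1 library 1 (0.0509). Only the called members with the smallest p were followed singly, and of these 4 lost their call without at least 1 library and 8 kept it. Beside Tnnt2 they were Myl1 without day 1 library 2 (adjusted p = 0.0508) and Pvalb without day 0 library 2 (0.0638) or day 1 library 3 (0.0508). The last was Tnni2, without day 0 library 1 (0.0627) or day 1 library 2 (0.0899). The other called members were not followed singly, so losses among them are not named. The satellite cell factor Pax7 went from 799, 657 and 737 CPM to 222, 254 and 280 and Myod1, the factor of activated satellite cells, from 427, 558 and 356 CPM to 2451, 2628 and 2403 in the same libraries. Of 8 MmSC markers 3 rose in these libraries (Pdgfra from a mean of 0.229 to 27.8 CPM, Lum from 7.34 to 46.8 and Ly6a from 0.249 to 8.08) and 3 fell (Col3a1 from 1230 to 345 CPM, Cd34 from 729 to 298 and Thy1 from 23.8 to 5.72). Their sum went from between 1941 and 2116 CPM to between 713 and 1182 CPM. Of 7 mural markers tested Notch3 fell, from 750 to 168 CPM, and Pdgfrb rose, from 2.57 to 9.04 CPM, with the sum of 8 at 1461 to 2599 and then 553 to 1090 CPM. The part of either in the members' changes was not tested.

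In MmSCs the median fall was deeper than in MuSCs, and it lay mainly in the fast and shared genes. Acta1 was at 197, 157 and 71.9 CPM at day 0 and at 0, 2.34 and 1.30 CPM on day 1. Atp2a1 was at 27.1, 28.1 and 18.7 CPM and then 0.421, 0.67 and 2.04, and titin at 23, 23.5 and 41.3 CPM and then 0.701, 2.01 and 0.185. The groups were far apart for each of these, with every day 1 library at a small fraction of the lowest day 0 library. The changes were -7.21 ± 0.59 for Acta1 (adjusted p = 2.61e-09), -4.89 ± 0.44 for Atp2a1 (8.53e-09) and -5.12 ± 0.46 for Ttn (9.42e-09). Myl1 went from 265 counts to 1, that is 274 times lower (counting interval 48.8 to 10900), and the Z-disc cap of titin Tcap from 3.19, 3.75 and 3.18 CPM to 0 in all 3 libraries, at least 20.7-fold lower against a floor of 3 counts over the group. Myh4 fell by a ratio of 175 (counting interval 31.0 to 6950), from 9.58, 11.1 and 7.55 CPM to 0, 0.167 and 0.

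Pygm fell less steeply, from 22.7, 21.2 and 30 CPM to 4.63, 4.02 and 6.3 (-2.57 ± 0.25, adjusted p = 2.69e-08), and Des fell from 65.4, 58.2 and 85.7 CPM to 22.6, 27.6 and 41.5 (-1.46 ± 0.31, adjusted p = 0.000651). Eno3 was at 15.4, 14.4 and 10.3 CPM and then 11.5, 10.7 and 12.6 (-0.50 ± 0.26, adjusted p = 0.138), and Tpm2 at 21, 21.6 and 13.7 CPM and then 47.1, 24.6 and 36.9 (0.67 ± 0.42, adjusted p = 0.212). Myl4 was nearly level, at 5.59, 4.88 and 5.17 CPM and then 5.75, 6.7 and 6.11. These are the members that led the order of levels in MmSCs on day 1: Tpm2 at 12.4 CPM per kb, Des at 8.14 and Eno3 at 6.67, with Acta1 down to 0.79.

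Over the 31 tested members 23 fell and 1 rose in MmSCs (77.4% called), beside 41.8% of all genes, with 23.6% lower and 18.2% higher. The median change was -3.44, or -3.26 with genes at 0 set to their bound, against -0.224 over all genes. The members that fell were 12 of 13 fast genes, 9 of 11 shared genes, Mybpc1 and Actc1. The 1 that rose was Tnnt1, named after its values were seen, from 1 count to 15 (ratio 14.5, counting interval 2.23 to 610, edgeR adjusted p = 0.0181), and its call was lost without day 0 library 1, day 0 library 3 or day 1 library 2. The number of members at 0 in a library was 3, 2 and 6 at day 0 and 19, 13 and 14 on day 1. Of 8 MmSC markers 4 fell in these libraries and 0 rose, and their sum went from between 49552 and 60531 CPM to between 18050 and 22830 CPM. Of 4 tendon markers tested Tnmd (54.1 to 7.68 CPM) and Fmod (146 to 14.1 CPM) fell, while Thbs4, not called, went from 349 to 1460 CPM and set the sum (349 to 909, then 1062 to 1778 CPM). Of 8 endothelial markers Tek fell, from 90.0 to 11.4 CPM, Egfl7 rose, from 0.188 to 4.09 CPM, and Pecam1, Cdh5, Kdr, Emcn, Cldn5 and Vwf were under 1 CPM on both days, with the sum at 85.5 to 98.9 and then 13.0 to 18.8 CPM. Of 8 satellite cell markers 2 rose and 1 fell and the sum went from between 271 and 290 CPM to between 960 and 1124 CPM, mostly Sdc4 (221 to 946 CPM), while Pax7 and Myf5 were at 0.0626 and 0 CPM at day 0 and at 0 on day 1. The part of these markers in the members' fall was not tested.

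In CD31+ cells 11 members fell and the slow genes had 0 calls. Pygm was at 43.8, 33.4 and 46.9 CPM and then 10.3, 14.3 and 21.2, and Acta1 at 68.7, 76.7 and 52.1 CPM and then 16.4, 47.7 and 18.7. Myl1 was at 8.72, 9.98 and 8.53 CPM and then 2.21, 2.95 and 2.76. No day 1 library overlapped the day 0 libraries for these genes, though Acta1 in day 1 library 2 came close. The changes were -1.43 ± 0.23 for Pygm (adjusted p = 4.86e-05), -1.23 ± 0.41 for Acta1 (0.0331) and -1.76 ± 0.44 for Myl1 (0.00517). Mylpf, at 39, 35.3 and 33.8 CPM and then 11.7, 19.1 and 17.1, missed the threshold (-1.16 ± 0.43, adjusted p = 0.0519), as did Des (57.1, 59.9 and 40.8 CPM, then 32.7, 40.3 and 20.7; -0.72 ± 0.32, adjusted p = 0.105) and Tpm2 (75.2, 53.7 and 53 CPM, then 20.5, 47 and 28.7; -0.91 ± 0.41, adjusted p = 0.117).

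Over the 31 tested members 11 fell and 0 rose in CD31+ cells (35.5% called), beside 23.5% of all genes, with 9.35% lower and 14.2% higher. They were 5 fast genes (Myl1, Tnnt3, Tnni2, Casq1 and Pygm), 5 shared genes (Acta1, Actn2, Mb, Neb and Tcap) and Actc1, and the median change was -1.14 against -0.0356 over all genes. The number depended on single libraries: it was 4 without day 0 library 1 or day 1 library 1, 5 without day 0 library 2 and 7 without day 1 library 2. Pygm, Tcap and Myl1 kept their calls in every such fit, and the other 8 lost theirs in at least 1. Rasgrp2, which lies 880 bases from Pygm on the same strand, went from a mean of 85.2 to 46.4 CPM in CD31+ cells. The part of Rasgrp2 in the Pygm values was not tested. DESeq2 called 18 members lower. Leukocyte markers were called higher in 6 of 8. By size, their sums were 4.8, 6.7 and 11.2 CPM in the day 0 libraries and 10.4, 12.1 and 234 CPM on day 1, where a single library stood far above the others. Mural markers were at 590 to 878 and then 330 to 502 CPM, with 2 of 7 tested lower. The part of either in the members' values was not tested.

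In CD45+ cells Eno3 had the highest level per kilobase at day 0 and the smallest p for the change. It fell from 52, 60.6 and 64.1 CPM to 10.2, 7.86 and 10.6 (-2.37 ± 0.27, adjusted p = 5.32e-07), with no overlap. Acta1 fell from 49.7, 49.1 and 31.3 CPM to 3.68, 3.63 and 8.01 (-2.85 ± 0.50, adjusted p = 0.000123), and Myl1 from 9.99, 13.8 and 4.51 CPM to 0.217, 0.806 and 0.4 (-4.01 ± 0.58, adjusted p = 1.37e-05). Every day 1 library was again below every day 0 library in both. Casq1, the calcium store protein of fast fibres, went from 1.59, 5.46 and 1.5 CPM to 0 in all libraries, at least 13.4-fold lower (adjusted p = 0.000253). Des, at 2.5, 10.1 and 2.41 CPM, went to 0.217, 1.01 and 0 (-3.26 ± 0.76, adjusted p = 0.00194). Pygm, by contrast with its fall in the other compartments, was at 3.86, 4.02 and 4.21 CPM and then 2.6, 4.63 and 5 (0.27 ± 0.31, adjusted p = 0.542).

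Over the 31 tested members 20 fell and 0 rose in CD45+ cells (64.5% called), beside 34.6% of all genes, with 18.7% lower and 15.9% higher. They were 10 of 13 fast genes, 8 of 11 shared genes and 2 of 3 regenerating isoforms, with a median change of -2.37, or -2.15 with genes at their bound, against -0.119 over all genes. The number was 12 without day 1 library 2, and 11 in a fit of the CD45+ libraries alone. Some members have neighbours that leukocytes express strongly: Ryr1, the calcium release channel (40.2, 27.6 and 31.6 CPM, then 11.5, 14.1 and 19.8, adjusted p = 0.0763), lies 64 bases from Map4k1 on the opposite strand (mean 170, then 83.8 CPM). Tnni2, which fell from 21.1, 24.7 and 32.8 CPM to 7.15, 8.66 and 14.6 (-1.11 ± 0.34, adjusted p = 0.0139), lies 16398 bases from Lsp1 on the same strand (2519, then 1251 CPM). Lsp1 is nearer to Tnnt3, at 3968 bases on the same strand. Rasgrp2 (83.9, then 18.6 CPM) lies 880 bases from Pygm on the same strand, and Cx3cr1 overlaps Xirp1 on the same strand. The part of these neighbours in the members' counts was not tested. Of 5 erythroid markers 4 were lower on day 1. By size, their sums were 1.44, 6.02 and 506 CPM in the day 0 libraries, with a single library far above the others, and 0 to 1.21 CPM on day 1. The part of the erythroid markers in the members' fall was not tested.

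**Figure D5:**
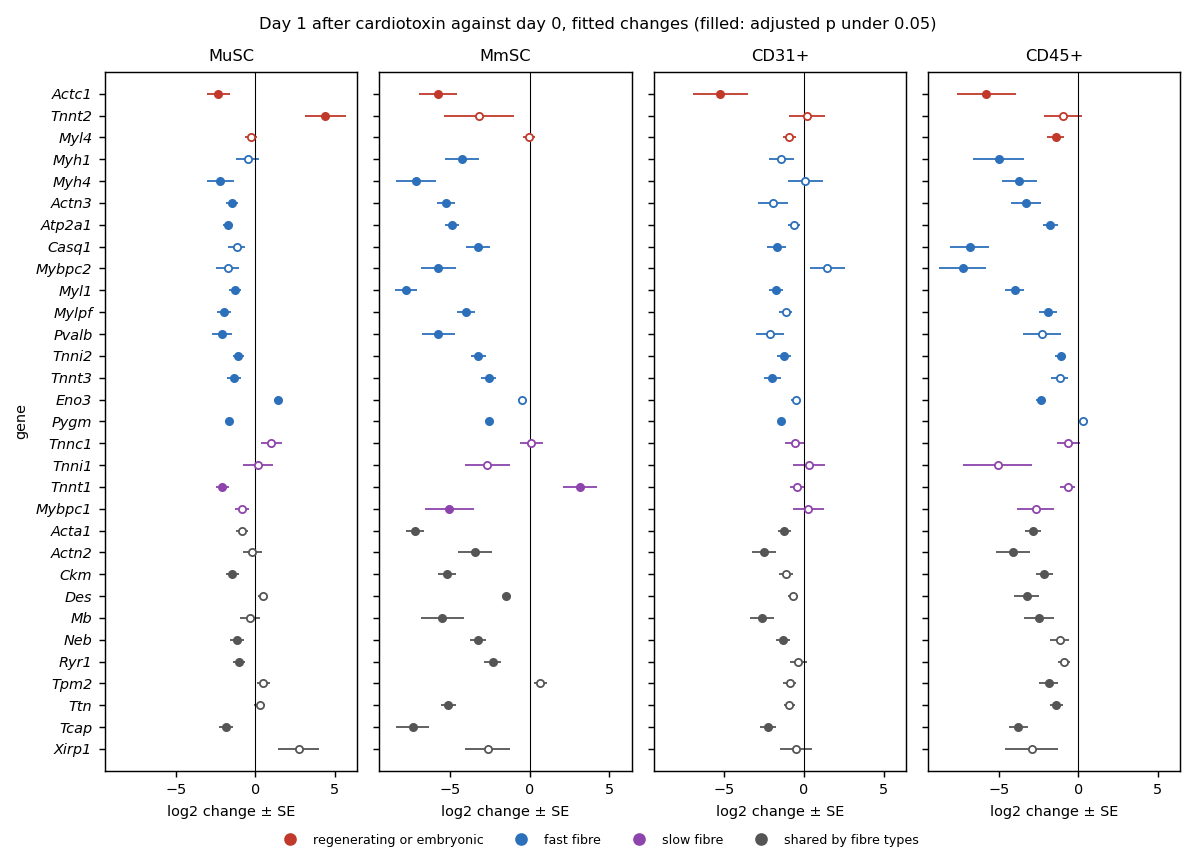
Fitted log2 change from day 0 to day 1 after cardiotoxin, with SE bars, for the 31 tested members in MuSCs, MmSCs, CD31+ and CD45+ cells (filled points: adjusted p under 0.05; 3 against 3 libraries each). MmSC points reach -7.77 for Myl1, most MuSC points lie between -2.33 and 0.48, and the filled points right of 0 are Tnnt2 and Eno3 in MuSCs and Tnnt1 in MmSCs.

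The injury response itself differed between compartments for 21 of the 31 tested members (67.7%), beside 36.1% of all genes tested, by an edgeR test of the interaction. The number was 15 without MmSC day 0 library 1. Eno3 led (adjusted p = 6.28e-07), with log2 changes of 1.43 in MuSCs, -0.50 in MmSCs, -0.52 in CD31+ cells and -2.37 in CD45+ cells. Titin followed, at 0.26, -5.12, -0.92 and -1.39 (adjusted p = 2.46e-06), and Acta1 at -0.86, -7.21, -1.23 and -2.85 (2.48e-06). For Des the changes were 0.45, -1.46, -0.72 and -3.26 (adjusted p = 0.00114), and for Pygm -1.67, -2.57, -1.43 and 0.27 (8.3e-05). Tnnt3, with changes between -2.58 and -1.18 in all compartments, was among the 10 members that did not pass (adjusted p = 0.289).

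The other fibre genes moved less uniformly on day 1. In MuSCs, Tpm3, the slow alpha-tropomyosin that many other cells also make, rose from a mean of 172 to 410 CPM (1.46, adjusted p = 7.48e-10) and the myosin chaperone Unc45b fell from 12.1 to 2.56 CPM (-2.04, adjusted p = 0.000675), among 22 tested genes of other sarcomere and Z-disc proteins of which 2 rose and 3 fell, a smaller share than the 38.8% called over all genes. Of 13 tested genes of myogenic regulation and fusion 2 rose, Myod1 (447 to 2494 CPM, 2.69, adjusted p = 1.49e-07) and Cav3 (0.592 to 20.1 CPM), and 5 fell, Pax7 among them (731 to 252 CPM, -1.33, adjusted p = 0.00254). In MmSCs, with 41.8% of all genes called, 12 of the 22 other sarcomere genes fell, such as the Z-disc protein Myoz1 (8.16 to 0.124 CPM, -6.24), and 1 rose, Tpm3 (165 to 406 CPM, 1.03, adjusted p = 8.68e-08). Of 12 energy genes 8 fell there, such as muscle phosphoglycerate mutase Pgam2 (3.83 to 0.0618 CPM, -5.89), and 1 rose, the widely made aldolase Aldoa (803 to 1284 CPM, 0.41). In CD31+ cells 4 of the 22 sarcomere genes rose and 1 fell, near the background of 23.5% called. In CD45+ cells, with 34.6% called over all genes, 1 rose and 8 fell, the erythroid-expressed Tmod1 most (42.7 to 0.534 CPM, -6.02, adjusted p = 4.29e-05).

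In MmSCs of the other experiments few members passed the low count filter. On day 1 after cardiotoxin, Il1b-KO and Il1b-WT MmSCs had 9 members tested and 0 called, beside 1.21% of all genes (1.12% higher and 0.0909% lower), with 0 members at an unadjusted p under 0.05 by edgeR and 0 called by DESeq2. Tpm2 was at 27.2, 36.6 and 35.8 CPM in the knockout and 29.3 and 26.1 CPM in the wild type (0.27 ± 0.16, adjusted p = 0.575), and Des at 16.3, 15 and 9.33 CPM against 12.6 and 10.6 (0.24 ± 0.25, adjusted p = 0.79). Acta1 was at 0.564, 0 and 0 CPM against 0.383 and 0, near 0 as in the C57BL/6J MmSCs of the same day.

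At 12 h after cardiotoxin, Thy1.1+ and Thy1.1- MmSCs had 12 members tested and 0 called, beside 0% of all genes, although 1 member and 1258 genes had an unadjusted p under 0.05. That member was Des, at 13.6, 6.47 and 5.55 CPM in Thy1.1+ cells and 19.9, 20 and 26.7 CPM in Thy1.1- cells, with no overlap (-1.37 ± 0.37, adjusted p = 0.326). Acta1 was at 3.05, 2.25 and 9.68 CPM against 3.48, 11.3 and 28.8, and Ckm at 1.62, 0.563 and 4.6 CPM against 2.61, 5.8 and 13.5, both overlapping. Library 3 of both groups departed from libraries 1 and 2 here, and the labels do not pair the libraries. With the replicate number as a block 3 members were lower, beside 10.7% of all genes called, 4.93% higher and 5.81% lower: Des (-1.40 ± 0.30, adjusted p = 0.0102), Acta1 (-1.43, adjusted p = 0.0225) and Ckm (-1.73, adjusted p = 0.0361). Summed endothelial markers were at 8.3 to 15.4 CPM in Thy1.1+ and 30.0 to 54.8 CPM in Thy1.1- libraries, mostly Tek (means of 7.39 and 37.4 CPM), with Pecam1, Cdh5, Kdr, Emcn, Cldn5 and Vwf under 1 CPM. The mural sum was at 152 to 250 and 208 to 358 CPM, mostly Pdgfrb (125 and 223 CPM). In both lists 0 markers were called, and their part in these values was not tested.

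In MmSCs of uninjured DMDmdx mice the members with signal changed between 2.5 and 7 weeks in both directions. Tpm2 rose from 9.01, 5.71 and 12 CPM to 46.5, 30.9 and 28 (2.05 ± 0.26, adjusted p = 2.12e-05), and Des from 18.2, 20.5 and 13.8 CPM to 74.3, 38.1 and 62.4 (1.79 ± 0.23, adjusted p = 3.4e-05). Pygm fell from 29.3, 11 and 22.6 CPM to 3.69, 2.15 and 4.29 (-2.56 ± 0.36, adjusted p = 5.82e-05). None of these groups overlapped. Tnnt3 fell from 17, 8.46 and 12.7 CPM to 3.69, 1.79 and 1.81 (-2.28 ± 0.37, adjusted p = 0.000225), Ttn fell by 1.57 and Myl4 by 0.88 on the log2 scale. Nebulin (Neb), the ruler of the thin filament, fell from 18.6, 13.8 and 11.6 CPM to 7.55, 5.19 and 9.49 (-0.93, adjusted p = 0.016), a call lost without 2.5 week library 1 (0.0689) or 7 week library 2 (0.0825). Of 10 members tested 2 rose and 5 fell (70% called), beside 44.6% of all genes, with 21.9% higher and 22.7% lower. Acta1 stayed between 0 and 3.34 CPM at every age.

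From 7 to 12.5 weeks, a comparison that shares the 7 week libraries, Des fell from 74.3, 38.1 and 62.4 CPM to 8.89 and 11.4 (-2.44 ± 0.30, adjusted p = 0.000573), the 1 member of 10 called (10%), beside 5.90% of all genes, with 3.52% higher and 2.39% lower. Tpm2 was at 15.6 and 18 CPM at 12.5 weeks (-0.98 ± 0.28, adjusted p = 0.0509). Des and Tpm2 are also made by mural cells, whose summed markers were at 203 to 304 CPM at 2.5 weeks, 402 to 431 at 7 weeks and 393 to 413 at 12.5 weeks. Of 6 mural markers tested 2 rose from 2.5 to 7 weeks and 1 fell from 7 to 12.5 weeks, Acta2, which had means of 2.82, 83.0 and 33.1 CPM, moving in both steps. The endothelial sum was at 380 to 438, then 51.5 to 57.6 and then 70.7 to 100 CPM, mostly Tek (399, 41.7 and 78.1 CPM). The tendon sum was at 91.3 to 594, then 3516 to 3868 and then 2865 to 3266 CPM, with 3 of 4 tested higher at 7 than at 2.5 weeks. Their part in the members' values was not tested.

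MmSCs of uninjured C57BL/6J mice given PBS or cytokines held members at summed levels of 174 to 424 CPM. At 2 h the mix had 2 of 26 tested members higher than PBS and 0 lower (7.69% called), beside 38.5% of all genes, with 20.5% higher. They were Ttn (17 and 23.9 CPM against 11.8 and 20.9, 0.83 ± 0.30, adjusted p = 0.0332) and Ckm (14 and 18.5 CPM against 9.87 and 13.4, 0.99 ± 0.38, adjusted p = 0.0439), and Ttn overlapped. The scaling factors moved all genes by 0.52 on the log2 scale in this comparison, and 0 members were called without mix library 2, and 1 without mix library 1 or PBS library 1.

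At 8 h, against the same PBS libraries, 4 of 26 tested members were higher and 2 lower (23.1% called), beside 28.4% of all genes, with 15.6% higher and 12.9% lower. The median difference was 0.872 over the tested members, 5 of which lay below 0, beside 0.0746 over all genes. Atp2a1 rose from 9.87 and 17.4 CPM to 41.4 and 41.3 (1.65 ± 0.33, adjusted p = 0.000664) and Ckm from 9.87 and 13.4 CPM to 30.8 and 25.3 (1.32 ± 0.37, adjusted p = 0.0102). Eno3 (from 5.38 and 5.75 CPM to 8.21 and 15.0) and Actn3 (from 9.87 and 8.31 CPM to 20.4 and 16.9) also rose, without overlap. Des fell from 59.5 and 44.8 CPM to 20.3 and 20.7 (-1.30 ± 0.35, adjusted p = 0.00808) and Pygm from 24.5 and 20.8 CPM to 9.15 and 9.44 (-1.24 ± 0.36, adjusted p = 0.012). The groups did not overlap for Atp2a1, Ckm, Des and Pygm, but only Atp2a1 kept its call without each library in turn, and 0 members were called lower without mix library 1, mix library 2 or PBS library 1, and 2 without PBS library 2. Acta1 was at 79.8 and 52.1 CPM against 27.4 and 49.9 (0.83 ± 0.38, adjusted p = 0.11). Of 3 endothelial markers tested Tek was lower (means of 60.3 CPM after the mix and 282 with PBS), the list's median difference was 1.73, and the sum was at 61.8 to 66.2 CPM after the mix and 255 to 314 CPM with PBS. Of 5 mural markers tested 4 were lower, such as Cspg4 (1.13 against 70.3 CPM), and the sum was at 182 to 258 and 461 to 562 CPM. The part of either in the members' values was not tested.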

How the data were processed

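Gene counts were deposited by the authors as 1 table of 55011 genes and 70 libraries, with 0 sample columns left unused. STAR 2.7.3a, featureCounts and the genome mm10 (GRCm38) are named in the submitters' processing notes. Not given in the sources used here are the annotation version, the strand setting and what was done with reads of more than 1 gene. Genes with low counts were removed with filterByExpr (minimum count 10), libraries were scaled by TMM, and edgeR's quasi-likelihood test (edgeR 4.0.16 with limma 3.58.1, R 4.3.3) was run in a separate fit for each of the 6 experiments. P-values were adjusted by Benjamini-Hochberg over the whole table, and calls are those with an adjusted p under 0.05. CPM is the count scaled by the library total, and levels between genes were compared only per kilobase of exon union (GENCODE M21, GRCm38). Isoform shares were compared with a two-sided exact permutation test over libraries. For a group with 0 counts a fold is a lower bound against 3 counts over the group, and ratios with 1 to 3 counts carry an exact 95% interval, which covers counting error only. Alternatives were DESeq2 1.42.0, its size factors, scaling without fibre genes, no filter, only the groups compared, the replicate number as a block and leaving out each library.

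The members and gene lists were chosen with earlier results of these data known, and by the rule for naming genes any member may be named, given in full for the isoform pairs of whole muscle and for up to 12 members with the smallest p in a comparison, with up to 4 genes of smallest p from each pathway list. Replicate libraries differed beyond sampling noise (chi-square per degree of freedom 4.228 to 55.97). Same-numbered Thy1.1+ and Thy1.1- libraries deviated together (correlations of 0.518, 0.566 and 0.761 over genes). Libraries 1 and 2 of unlike number did so too (0.414 and 0.406), while library 3 went against libraries 1 and 2 of the other group (-0.568 to -0.633). The values set library 3 of both groups apart and do not show that the number pairs libraries 1 and 2. The fit was tested on simulated data: for the whole muscle comparison (13305 genes) it recovered 54% of genes changed 2-fold and 100% of those changed 4-fold, and for MuSC injury (14833 genes) 49% and 99%. There were 7 and 10 false calls. The simulation gave every gene the same spread and changed only well-counted genes. Its rates therefore do not carry over to members with low counts or to differences below 2-fold.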

Additional observations from a re-analysis of the deposited data

Results flagged for a closer look

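In the edgeR test of the interaction, 21 members had an injury response that differed among the MuSCs, MmSCs, CD31+ and CD45+ cells, and this difference between groups is why they are listed here. The log2 changes from day 0 to day 1 of the first ones are in the report. Among genes shared by fibre types the adjusted p was 2.46e-06 for Ttn, 2.48e-06 for Acta1, 0.000599 for Ckm, 0.00114 for Des, 0.00766 for Tcap, 0.0161 for Tpm2, 0.0269 for Actn2, 0.0346 for Mb and 0.0424 for Neb. Among fast fibre genes it was 6.28e-07 for Eno3, 2.3e-05 for Myl1, 5.22e-05 for Atp2a1, 8.3e-05 for Pygm, 0.00147 for Actn3, 0.0019 for Mybpc2, 0.013 for Myh4, 0.0192 for Casq1, 0.0217 for Mylpf and 0.0227 for Tnni2. Among slow and regenerating isoforms it was 0.00264 for Tnnt1 and 0.0448 for Tnnt2. Tnnt1 was called in opposite directions, with a log2 change of -2.07 in MuSCs and 3.17 in MmSCs, the latter from 1 count to 15.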

How the results depend on the processing

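Among the members followed singly, none reversed its direction under another scaling (DESeq2 size factors, or TMM without fibre genes). Those followed were the called members with the smallest p in a comparison and the isoform pairs of whole muscle. The direction of the other members was not checked, and comparisons of sorted cells without a called member had no such check. In whole muscle, leaving out libraries turned small differences: Actc1 ranged from -0.03 (without antibody library 1) to 0.17, with 0 without IgG library 2. Myh8 ranged from -0.04 (without antibody library 3) to 0.3, and Myh4 from -0.28 to 0.08 (without IgG library 2), with 0 without antibody library 3. Myh1 ranged from -0.29 to 0.08 (without IgG library 1).

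DESeq2 called 18 members lower in CD31+ cells, 1 lower in Thy1.1+ MmSCs and 2 lower from 7 to 12.5 weeks in mdx MmSCs. With no filter on low counts, 2 members rose in MmSCs on day 1, 2 were lower in Thy1.1+ cells and 2 fell from 7 to 12.5 weeks. In fits of only the groups compared, 4 members rose in MuSCs, 11 fell in CD45+ cells and 2 fell from 7 to 12.5 weeks. The cause of these differences was not tested.

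Leaving out each library in turn gave 1 to 2 members higher and 9 to 14 lower in MuSCs, 0 to 1 higher and 22 to 23 lower in MmSCs, 4 to 11 lower in CD31+ cells, 12 to 17 lower in CD45+ cells, 15 to 22 for the interaction and 20 to 25 higher in MuSCs against the other compartments. It gave 4 to 6 lower from 2.5 to 7 weeks, 0 to 2 higher after the mix at 2 h, and 2 to 3 higher and 0 to 2 lower at 8 h.

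The replicate block gave 3 members lower in Thy1.1+ cells, where library 3 of both groups stood apart. Elsewhere too the libraries share only a number, and the block gave 0 members in whole muscle, 2 higher and 14 lower in MuSCs, 1 and 23 in MmSCs, 12 lower in CD31+ cells, 20 lower in CD45+ cells, 19 for the interaction, 22 in MuSCs against the others, 0 for Il1b-KO, 2 and 5 and then 1 lower in mdx MmSCs, and 2 higher after the mix at 2 h and 5 higher and 2 lower at 8 h.

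Over all genes, whole muscle had 4 calls, 159 with no filter and 0 with the block. Thy1.1+ against Thy1.1- had 0, with 177 by DESeq2, 360 with no filter and 1286 with the block. Il1b-KO had 146, with 248 by DESeq2, 594 with no filter and 7 to 670 without single libraries. The step from 7 to 12.5 weeks had 777, with 2027 in the fit of only its groups and 137 to 481 without single libraries. Levels per kilobase moved beyond the spread between libraries for 23 of 36 members in IgG whole muscle when the longest transcript replaced the exon union. Myosin and troponin isoforms at a few counts per library in sorted cells were near the limit of this depth.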
